A study of Mus musculus with 8 samples.

Results

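Wnt ligands are lipid-modified secreted proteins that act over short distances. A canonical ligand binds a Frizzled receptor together with Lrp5 or Lrp6, which stabilises beta-catenin and lets it switch on genes with TCF and LEF factors, whereas a non-canonical ligand acts through planar polarity, Ror or calcium routes without beta-catenin. In skin, canonical signalling is needed for hair follicles to form and to enter anagen, the growth phase of the hair cycle, and the ligands come from the epidermis, the follicle epithelium and the dermis.

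The genes described here are 10 Wnt ligands of skin, Wnt3, Wnt4, Wnt5a, Wnt6, Wnt7a, Wnt7b, Wnt10a, Wnt10b, Wnt11 and Wnt16, chosen by symbol, and 9 of them are among the 18770 genes of the deposited table. Wnt7a was not analysed here. Wild-type C57BL/6 mice (C57BL/6J in the methods), labelled as 7 to 8 weeks old, had their back hair plucked to start a new hair cycle. From 24 hours later, 20 µL of solution was put on the skin each day. The vehicle control (VC) was 65% ethanol, and the treated group (AP) received alpinetin, a plant flavonoid, at 3 mg/mL in the same ethanol. RNA was taken on day 4 after plucking from skin that the labels give as without the epidermis between the follicles, with 4 libraries in each group. The column names do not tie a library to an animal, so the p-values below measure the spread between libraries, and in whole tissue a change in the number of cells of a type cannot be told apart from a change in RNA per cell.

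The deposited values are read counts divided by 1 size factor per library, called normalized counts below. The reads behind them could be recovered, and libraries held 6454563 to 7264151 reads in VC and 8507783 to 11190113 in AP. Mitochondrially encoded genes took 48.4% ± 5.81 of the reads in VC and 8.66% ± 2.63 in AP (SD, n = 4 each, exact permutation p = 0.0286, two-sided, the smallest that 4 against 4 libraries allow). This left 3080758 to 3762217 other reads per VC library and 7561598 to 10594787 per AP library. The Wnt ligands together had 860, 1093, 1459 and 468 reads in the VC libraries and 1851, 2594, 4555 and 3361 in the AP libraries, in the order of the library numbers (VC.1, VC.2 and so on) as in all such sentences here, so each ligand was counted less deeply in VC. Single ligands had from 0 to 425 reads in a VC library and from 10 to 1044 in an AP library, and 7 of the 9 had at least 10 reads in every library. The spread within a group was wider than read counting gives for each of the 9, with a variance 2.12 to 29.8 times that of counting in VC and 6.62 to 130 times in AP.

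Wnt7b and Wnt11 were higher in AP, and no ligand passed the test in the other direction. The test was limma's linear model on log2(normalized counts + 1) over the 15964 genes that reached 3 normalized counts in 4 or more libraries, with Benjamini-Hochberg adjustment over all of them and a threshold of 0.05. It called 2 of 9 ligands higher, or 22.2%, where 6.33% of all genes tested were higher (1011) and 4.0% lower (639). With 1 library left out, genes higher ranged from 209 to 1082, genes lower from 94 to 817 and ligands higher from 0 to 2. When libraries were scaled by all their reads, mitochondrial ones included, the genes called became 8657 higher and 70 lower. By an unadjusted p under 0.01 with a fold change over 1.5, the same 2 ligands were higher, against 8.26% of all genes, and 0 were lower, against 5.32%. The 4 AP values lay above the 4 VC values for these 2 ligands, as they did for 10.3% of all genes, and below them for 0 ligands, against 8.91%. Among the 9, limma gave 0 lower at an unadjusted p under 0.05 as well, as did edgeR, DESeq2 and limma-voom on the recovered reads. Higher at an adjusted p under 0.05 were 2 of the 9 with edgeR, 3 with DESeq2 and 0 with limma-voom. Of all genes, 17% were higher and 13.3% lower by limma at an unadjusted p under 0.05. At an adjusted p under 0.05 it was 6.28% and 4.46% with edgeR, 10.5% and 8.53% with DESeq2, and 4.48% and 4.53% with limma-voom.

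**Figure D1:**
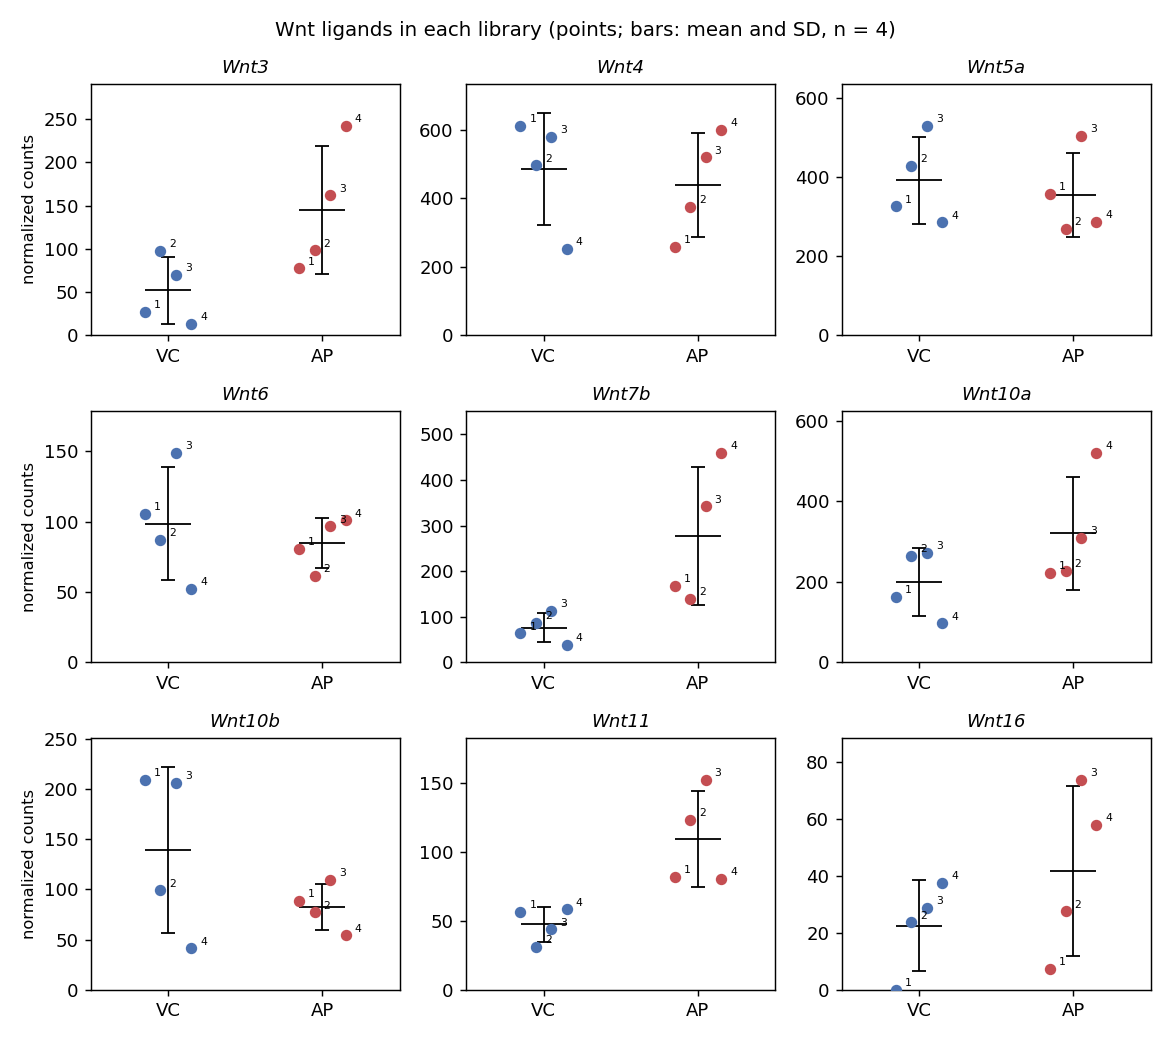
Normalized counts of each Wnt ligand (vertical axes from 0, scaled per gene) in the 4 VC and 4 AP libraries, with the library's number beside its point and bars for the mean and SD. For Wnt7b and Wnt11 every AP point lies above every VC point, and for the other 7 ligands the groups overlap.

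Among canonical ligands, limma called only Wnt7b, which is made by epidermal and follicle keratinocytes. Its normalized counts were 63.7, 87.2, 113 and 39.4 in VC and 168, 139, 343 and 460 in AP, from 21 to 83 reads and from 231 to 688 reads. The groups did not overlap, and AP.3 and AP.4 were far above AP.1 and AP.2. The means were 75.9 ± 31.7 and 277 ± 151 (SD, n = 4), and limma's log2 fold change was 1.79 with a standard error of 0.42 (3.45-fold, adjusted p = 0.0253). The exact permutation p was 0.0286. Without VC.1, VC.4, AP.3 or AP.4 in turn, limma's adjusted p became 0.0570, 0.0501, 0.0871 and 0.0754, with log2 fold changes of 1.74, 1.51, 1.63 and 1.49. The adjusted p was 0.0217 with edgeR, 0.000566 with DESeq2, 0.0640 with limma-voom and 0.0674 in limma without an intensity trend. It lay between 0.000566 and 0.0871 over all alternatives run.

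Wnt7b lies on chromosome 15 of mm10, from 85535437 to 85582473 on the minus strand. AU022754 overlaps it on the plus strand and had 0, 2, 1 and 0 reads in VC and 9, 28, 50 and 42 in AP. Whether counting used the strand is not stated in the sources used here, so reads of this pair cannot be told apart with certainty. AU022754 had at most 50 reads, in a library where Wnt7b had 688. How many reads of either gene were counted for the other was not tested. Wnt5a overlaps Gm2670, Wnt6 overlaps Gm29539 and Wnt11 overlaps Gm8398 in the same way, and Gm2670 had at most 64 reads and Gm29539 at most 6, with Gm8398 not analysed here. No Wnt gene shared a run of 50 bases of transcript with another Wnt gene. Wnt4 shared 3.85% of its runs of 50 bases in the sense direction with other genes, Gm42531 and Gm44951 among them, and 4.26% in the antisense direction.

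Wnt3, a canonical ligand made in the follicle epithelium, whose excess in transgenic skin shortens the hair, had 27.3, 97.5, 69.6 and 13.1 normalized counts in VC and 77.6, 98.1, 162 and 242 in AP. The groups overlapped, since VC.2 lay above AP.1. VC.1 and VC.4 were low, at 15 and 7 reads. The log2 fold change of 1.70 (standard error 0.58) did not pass limma's threshold (adjusted p = 0.0762, exact permutation p = 0.0571). DESeq2 on the recovered reads called it (log2 fold change 1.47, adjusted p = 0.0416), edgeR did not (adjusted p = 0.0953), and without VC.2 limma's adjusted p was 0.0421. Over all alternatives it lay between 0.00611 and 0.196.

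Wnt10a, whose loss in people disturbs hair, teeth and nails, had 164, 265, 272 and 97.5 normalized counts in VC and 223, 228, 309 and 521 in AP. AP.4 stood above the rest, and the other 3 AP libraries lay within or close to the VC range. The log2 fold change was 0.71 (standard error 0.36, limma adjusted p = 0.204), and 0.40 without VC.4 and 0.44 without AP.4. When libraries were scaled by all reads it was 1.57 and was called (limma adjusted p = 0.00823), as were Wnt3, Wnt7b and Wnt11. Wnt6, its neighbour on chromosome 1 with 6193 bases and no gene between them, had 98.5 ± 40.1 normalized counts in VC and 84.9 ± 17.9 in AP (SD, n = 4), with a log2 fold change of -0.14 (adjusted p = 0.798 in limma).

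Wnt10b, a canonical ligand of the hair placode and of early anagen, had a lower mean in AP by the deposited scaling, without passing the test. It had 209, 99.0, 206 and 41.3 normalized counts in VC and 88.5, 77.1, 110 and 54.4 in AP. VC.1 and VC.3 were high and VC.4 was below every AP library. The log2 fold change was -0.53 (standard error 0.47, limma adjusted p = 0.476), and 0.33 when libraries were scaled by all reads. With 1 library left out it ranged from -0.24 without VC.1 (limma adjusted p = 0.775) to -1.01 without VC.4 (adjusted p = 0.0844). Within a library, the level of Wnt7b per kilobase of exon was 0.467 ± 0.210 times that of Wnt10b in VC (from 0.211 to 0.663) and 2.65 ± 2.19 times in AP (from 1.25 to 5.87; SD, n = 4), so that Wnt10b was the higher of this pair in each VC library and Wnt7b in each AP library. This pair was chosen with results of these data known, and only Wnt7b of the 2 was called. How often other pairs of ligands change places between the groups was not counted.

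Wnt4 and Wnt16 are used both with and without beta-catenin, depending on the receptors of the receiving cell. Wnt4, which is strong in epidermis, had 613, 497, 580 and 253 normalized counts in VC and 258, 376, 520 and 601 in AP. These ranges nearly coincided, and the log2 fold change was -0.14 (standard error 0.32, adjusted p = 0.797 in limma). Wnt16 had the fewest reads of the 9, from 0 to 21 in VC and from 10 to 148 in AP. Its log2 fold change of 1.30 carried a standard error of 1.09 (limma adjusted p = 0.450), so the difference was about as large as its error. Without VC.1, where it had 0 reads, the log2 fold change was 0.07.

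Of the non-canonical ligands, Wnt11, which guides planar polarity and cell movement, was the other ligand called. Its normalized counts were 56.4, 31.0, 43.7 and 58.1 in VC and 82.0, 123, 152 and 80.1 in AP, from 21 to 32 reads and from 112 to 305 reads. The groups did not overlap, and AP.1 and AP.4 lay nearest to the VC libraries. The means were 47.3 ± 12.6 and 109 ± 34.7 (SD, n = 4), and the log2 fold change was 1.18 with a standard error of 0.32 (2.26-fold, adjusted p = 0.0386 in limma, exact permutation p = 0.0286). Without VC.1, VC.2, VC.3, AP.2, AP.3 or AP.4 in turn, limma's adjusted p became 0.0512, 0.0681, 0.0608, 0.105, 0.136 and 0.0691, at log2 fold changes between 0.99 and 1.31. The adjusted p was 0.0336 with edgeR, 0.00413 with DESeq2, 0.0571 with limma-voom and 0.0607 in limma without an intensity trend. In limma it was 0.0581 after the trend with transcript length was removed. Over all alternatives it ranged from 0.00103 to 0.136.

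Wnt5a, the main non-canonical ligand of the dermis, which signals through Ror2, did not follow Wnt11. It had 326, 429, 530 and 285 normalized counts in VC and 358, 269, 503 and 287 in AP, which overlapped over nearly their whole range. The log2 fold change was -0.15 (standard error 0.25, limma adjusted p = 0.713). Per kilobase of exon, Wnt11 was at 25.2% ± 12.4 of the Wnt5a level in VC (from 13.7% to 38.6%) and at 60.0% ± 18.7 in AP (from 43.3% to 86.6%; SD, n = 4).

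**Figure D2:**
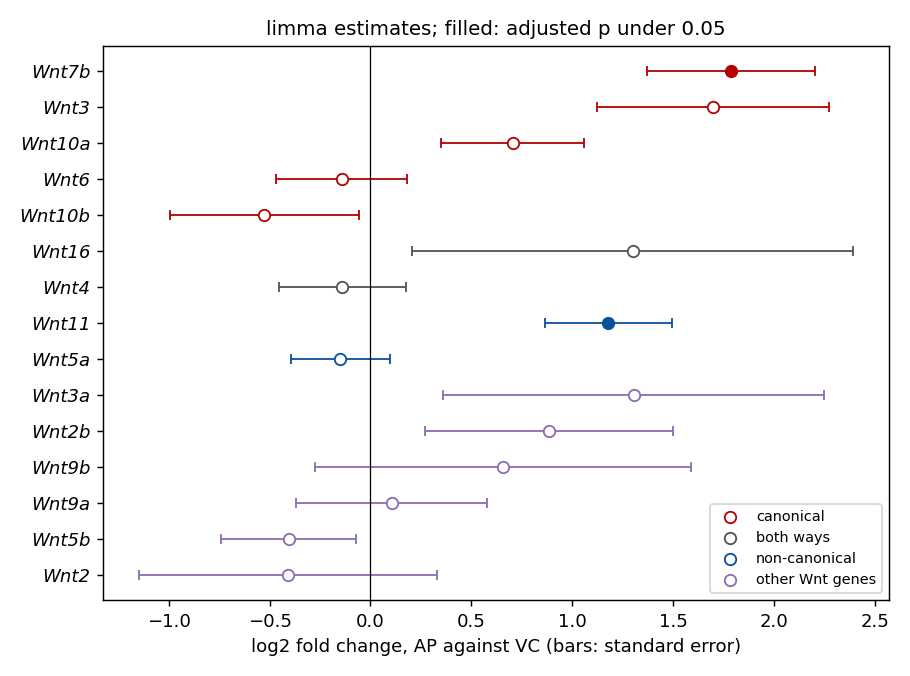
Log2 fold change of AP against VC for 9 Wnt ligands of skin and 6 other Wnt genes, by signalling class, with bars for limma's standard error and filled points for an adjusted p under 0.05. The filled points are Wnt7b at 1.79 and Wnt11 at 1.18, 1 canonical and 1 non-canonical ligand.

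Ligands on both sides of 0 stood in each class. Of the 5 canonical ligands measured, 3 had a log2 fold change above 0 and 2 below, with a mean of 0.70 and a median of 0.71. The 2 non-canonical ligands had a mean of 0.51, with 1 on each side of 0. The median over the 9 ligands was 0.71, beside 0.06 over all genes tested. Scaling by all reads moved the median of all genes by 0.84 and brought Wnt4, Wnt5a, Wnt6 and Wnt10b above 0, while relative to that median each of these 4 stayed below it. The mean canonical minus non-canonical log2 fold change was 0.19, smaller than the SD of the same difference between libraries of a group (0.65). This difference changed sign without VC.4 (-0.16) and without AP.4 (-0.07). It grew to 0.37 without VC.2 and to 0.45, the highest of 24 alternatives, when the trend with transcript length was removed. It was -0.06 when only ligands with at least 10 reads in every library were kept. That filter dropped Wnt3 for its 7 reads in VC.4, so it depends on the change itself and decides nothing here. The canonical minus non-canonical mean of log2(normalized counts + 1), which is not corrected for exon length and so is read only between libraries, was -0.57, -0.03, -0.07 and -1.64 in VC and -0.56, -0.74, -0.63 and 0.40 in AP, and the groups overlapped.

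For the order of the ligands, levels were taken per kilobase of exon. In VC the order of the means was Wnt4 (116 ± 38.8 normalized counts per kilobase), Wnt10a (80.8 ± 34.0), Wnt5a (50.1 ± 14.0), Wnt6 (44.9 ± 18.3), Wnt10b (40.8 ± 24.4), Wnt3 (16.9 ± 12.6), Wnt7b (15.5 ± 6.47), Wnt11 (11.4 ± 3.05) and Wnt16 (5.15 ± 3.68; SD, n = 4). Wnt4 was above Wnt10a, and Wnt10a above Wnt5a, in all 4 VC libraries, whereas each pair of neighbours from Wnt5a to Wnt11 changed places in at least 1 library. In AP the order was Wnt10a (130 ± 56.5), Wnt4 (105 ± 36.3), Wnt7b (56.6 ± 30.9), Wnt3 (47.1 ± 24.1), Wnt5a (45.3 ± 13.6), Wnt6 (38.7 ± 8.17), Wnt11 (26.4 ± 8.38), Wnt10b (24.2 ± 6.77) and Wnt16 (9.54 ± 6.85; SD, n = 4). Wnt10a was above Wnt4, and Wnt4 above Wnt7b, in all 4 AP libraries. Each pair of neighbours from Wnt7b to Wnt10b changed places in at least 1 library. With the longest transcript as the length, Wnt10b came before Wnt6 and Wnt7b before Wnt3 in VC, and Wnt5a before Wnt3 in AP.

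As a share of the summed level of the 9 ligands per kilobase, which does not depend on how libraries are scaled, Wnt7b made up 3.26%, 4.32%, 4.56% and 3.88% in VC and 10.02%, 7.82%, 12.4% and 14.3% in AP. Wnt4 made up 36.6%, 28.8%, 27.3% and 29.1% in VC and 18.0%, 24.7%, 21.9% and 21.8% in AP. The 2 groups did not overlap in either share, although the normalized counts of Wnt4 did. Within a library, a larger share of 1 ligand lowers the shares of the others. The Wnt4 share can therefore fall without a fall of Wnt4, whose own log2 fold change was -0.14 (limma adjusted p = 0.797). The 5 canonical ligands together took 50.7% ± 6.20 in VC (from 42.4% to 56.0%) and 60.8% ± 5.36 in AP (from 55.9% to 67.7%), and the non-canonical ones took 17.2% ± 4.83 and 15.8% ± 4.90 (SD, n = 4). Both of these shares overlapped between the groups. Wnt4 and Wnt16, the ligands used both ways, together took 32.1% ± 3.58 in VC (from 28.6% to 36.6%) and 23.4% ± 3.44 in AP (from 18.5% to 26.4%; SD, n = 4), without overlap. The limit given for the Wnt4 share holds for this sum as well.

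**Figure D3:**
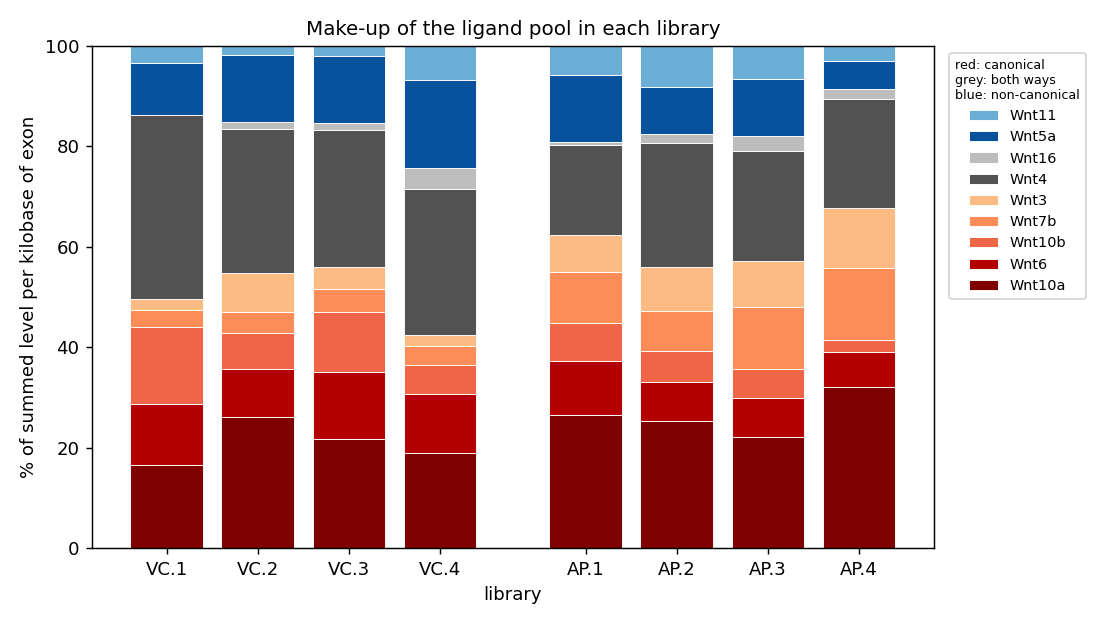
Share of each Wnt ligand in the summed level per kilobase of exon (vertical axis, percent) for the 8 libraries, stacked by signalling class. Wnt7b takes 3.26% to 4.56% of a VC library and 7.82% to 14.3% of an AP library, and Wnt4 takes 27.3% to 36.6% and 18.0% to 24.7%.

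The libraries also differed in keratinocyte transcripts, the cells that make Wnt3, Wnt4, Wnt7b and Wnt10a in skin. Of 10 markers of suprabasal keratinocytes, 9 were higher in AP and 0 lower by limma, with a median log2 fold change of 3.25, where 6.33% of all genes tested were higher and 4.0% lower. Their summed normalized counts were 5586, 11943, 8154 and 5351 in VC and 41858, 39753, 117893 and 165123 in AP, and Krt10, the most abundant, averaged 2376 ± 1207 and 38536 ± 27358 (SD, n = 4). Of 7 markers of basal keratinocytes, 4 were higher and 0 lower, with sums of 25229, 79842, 48423 and 22849 in VC and 52813, 55089, 98922 and 143325 in AP, which overlapped. Krt14, the most abundant, was at 19974 ± 14052 and 37960 ± 20586 (SD, n = 4) and was not among those called (limma adjusted p = 0.212). No marker of these lists was at 0 in a library. Suprabasal keratinocytes belong to the epidermis, whose part between the follicles the labels give as removed, and how much of it was left in each library is not recorded. AP.3 and AP.4, the libraries with the most Wnt7b and Wnt3, also had the highest sums of both lists, and VC.4, which had the lowest value of 7 of the 9 ligands in its group, had the lowest sums. VC.1 had sums close to those of VC.4, and it had the highest Wnt4 and Wnt10b of its group. The libraries differed in fibroblast markers as well, with sums of 120642, 81326, 82894 and 222688 in VC and 254001, 188854, 136041 and 97846 in AP. The part of these markers in the ligand differences was not tested.

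Wnt7b was set against these lists within each library, a measure chosen after the values were seen. Per 1000 normalized counts of the basal markers, Wnt7b had 2.52, 1.09, 2.34 and 1.72 in VC and 3.17, 2.53, 3.47 and 3.21 in AP, where the highest VC and the lowest AP library nearly met. Per 1000 of the suprabasal markers, Wnt7b had 11.4, 7.30, 13.9 and 7.36 in VC and 4.003, 3.50, 2.91 and 2.79 in AP, the opposite order. Wnt3, which was not called, also lay higher in AP without overlap per 1000 of the basal markers (from 0.574 to 1.44 in VC and from 1.47 to 1.78 in AP), and here too the nearest libraries of the groups nearly met. Per 1000 of the suprabasal markers, Wnt4, Wnt5a, Wnt6, Wnt10a and Wnt10b lay lower in AP without overlap as Wnt7b did. The sum of these markers itself averaged 7759 in VC and 91157 in AP, so any gene that rose less than this sum falls on this measure. The share of all genes without overlap per 1000 of the basal or the suprabasal markers was not computed, so these separations are not read as results about the ligands. Wnt11 had 2.24, 0.389, 0.902 and 2.54 per 1000 of the basal markers in VC and 1.55, 2.23, 1.54 and 0.559 in AP, which overlapped. Set against the fibroblast markers, the groups overlapped for each of the 9 ligands, Wnt7b included (from 0.177 to 1.37 per 1000 in VC and from 0.660 to 4.70 in AP).

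Among the other cell types, 2 of 8 dermal papilla markers were lower in AP and 0 higher, with sums of 1777, 1807, 2226 and 3178 in VC and 874, 1040, 1147 and 898 in AP and with Crabp1 as the most abundant by the mean of all libraries, which rests on 2254 normalized counts in VC.4 beside 130 to 602 in the other 7. Endothelial markers had 2 of 5 higher, with AP.2 apart from the other AP libraries (sums of 2054, 5014, 1873 and 1925), melanocyte markers 3 of 5 lower, Schwann cell markers 2 of 4 lower, and hair matrix, leukocyte and red blood cell markers 1 higher each, of 9, 6 and 5, where 6.33% of all genes tested were higher and 4.0% lower. Of the hair matrix, leukocyte and red blood cell markers, 5, 4 and 1 had log2 fold changes below 0. Their medians were -0.28, -0.18 and 0.94. By limma at an unadjusted p under 0.05, 3, 2 and 1 were higher and 0, 2 and 1 lower (17% and 13.3% of all genes). The lists for hair follicle stem cells, fibroblasts, skeletal muscle, adipocytes and the sebaceous gland had 0 of 32 genes called by limma. At an unadjusted p under 0.05 these had 2 higher and 6 lower (17% and 13.3% of all genes), while DESeq2 called 1 lower and edgeR and limma-voom 0. Of these, the 6 skeletal muscle markers all had log2 fold changes below 0, with a median of -1.65 and 4 at an unadjusted p under 0.05. Their sums were 39996, 62422, 31337 and 31557 in VC and 63650, 7876, 4684 and 10000.5 in AP, so AP.1 stood apart from the other AP libraries. Acta1, the most abundant, had a log2 fold change of -1.92 (limma adjusted p = 0.0628), and of -2.62 without AP.1 (adjusted p = 0.00279). None of these lists held a Wnt ligand, and their part in the ligand differences was not tested.

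The genes whose pattern over the 8 libraries was most like that of Wnt7b were Ankrd35, Tjp3 and Pof1b, the last 2 of which encode proteins of epithelial junctions. Their centred log2 values differed from those of Wnt7b by a root mean square of 0.20, 0.24 and 0.25, beside a median of 1.14 over 11257 genes with a mean of at least 50 normalized counts. For Wnt11 the nearest were Sema6d (0.18), Spns2 (0.22) and Prickle2 (0.25), beside a median of 0.78. Sema6d is a guidance molecule of the semaphorin family, Spns2 exports sphingosine 1-phosphate, and Prickle2 is a planar polarity protein. These genes were picked for their small distances, which include the difference between the groups, and a link to either ligand was not tested.

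Of the 9 other mouse Wnt genes, 7 are in the table and 6 were tested. Wnt5b was the most abundant, with 57.7 ± 22.5 normalized counts in VC and 42.0 ± 8.97 in AP (SD, n = 4). The log2 fold changes were -0.41 for Wnt2, 0.88 for Wnt2b, 1.30 for Wnt3a (0.13 without VC.4, where it had 0 reads), -0.41 for Wnt5b, 0.10 for Wnt9a and 0.66 for Wnt9b. Wnt9b had at most 7 reads in a library and 0 in VC.2 and VC.4, and it was at 0.25 without either of these and at 1.26 without VC.1. Limma called 0 of these 6, with 0 at an unadjusted p under 0.05 and 0 by edgeR, DESeq2 or limma-voom. Scaled by all reads, Wnt2b was at 1.64 and was called (limma adjusted p = 0.0479). Wnt2b was at 0.53 without AP.1, and Wnt5b at -0.17 without VC.1. Wnt8a had at most 2 reads in a library and was not tested. Wnt1 and Wnt8b were not analysed here.

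A Wnt ligand needs Porcn to receive its lipid and Wls to reach the cell surface. In a list of 7 genes for these steps and for the recycling of Wls, which also holds Notum, a secreted enzyme that removes the lipid again, limma called 0, with 2 higher at an unadjusted p under 0.05 (17% of all genes), and DESeq2 called 1 higher (10.5% of all genes). Its median log2 fold change was 0.18.

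Among 19 Wnt receptors and co-receptors, 3 were higher in AP and 0 lower, with a median log2 fold change of 0.85, where 6.33% of all genes tested were higher and 4.0% lower. The number higher was 4 by edgeR, 6 by DESeq2 and 2 by limma-voom. Lrp5, the co-receptor of canonical ligands, had 309 ± 38.4 normalized counts in VC and 710 ± 156 in AP (SD, n = 4; log2 fold change 1.18, limma adjusted p = 0.00884), and its groups did not overlap. Fzd1 and Fzd4 had log2 fold changes of 1.05 (adjusted p = 0.0258 in limma) and 0.99 (adjusted p = 0.0483). The call of Fzd4 held in 8 of 21 alternatives (log2 fold change 0.62 to 1.85, limma adjusted p up to 0.184), that of Fzd1 in 16 and that of Lrp5 in all 21. R-spondins, which amplify the response to a ligand by sparing Frizzled receptors from removal, had 3 of 4 lower. Rspo1 fell from 304 ± 76.3 to 109 ± 27.4 (log2 fold change -1.48, limma adjusted p = 0.0103), and the log2 fold changes of Rspo3 and Rspo4 were -1.45 (adjusted p = 0.0212) and -1.34 (adjusted p = 0.0356). Scaled by all reads, Rspo1, Rspo3 and Rspo4 were at -0.61, -0.58 and -0.50, and none was called (limma adjusted p = 0.126, 0.217 and 0.251). Over the 21 alternatives the calls of these genes held in 20, 16 and 12, and that of Rspo4 in 2 of the 8 fits with 1 library left out.

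The counts in the lists that follow stand beside the same 6.33% higher and 4.0% lower of all genes. Of 14 secreted and membrane antagonists tested, Wif1, which binds Wnt ligands outside the cell, was lower (log2 fold change -1.24, limma adjusted p = 0.0282) and Kremen1, which helps Dkk proteins clear Lrp receptors, was higher (0.85, adjusted p = 0.0386). In the beta-catenin cascade, 2 of 17 genes were higher, Bcl9l, a partner of beta-catenin in the nucleus (log2 fold change 1.02, adjusted p = 0.0230 in limma), and Gsk3b, a kinase that marks beta-catenin for removal (0.62, adjusted p = 0.0414). Of 8 feedback and target genes of beta-catenin, 2 were lower and 0 higher, and both, Nkd1 (log2 fold change -0.75, limma adjusted p = 0.0342, and 0.11 when scaled by all reads) and Nkd2 (-0.96, adjusted p = 0.0151), dampen the pathway. Of 8 planar polarity partners tested, which act with non-canonical ligands, Celsr1 (1.86, limma adjusted p = 0.0236) and Celsr2 (1.18, adjusted p = 0.0485) were higher. The call of Celsr2 held in 7 of 21 alternatives (log2 fold change 0.66 to 2.05, limma adjusted p up to 0.177) and that of Gsk3b in 11 (0.18 to 1.49, adjusted p up to 0.453), against 16 for Celsr1 and Bcl9l, 13 for Kremen1, Wif1 and Nkd1, and 19 for Nkd2. When libraries were scaled by all reads, which moved the median of all genes by 0.84, Nkd2 was at -0.10 (limma adjusted p = 0.741) and Wif1 at -0.37 (adjusted p = 0.396).

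Promoters were taken from RefSeq (GRCm38.p6) as the 250 bases before a gene's start, which the table gives for 7 of the 10 ligands. Motifs were searched on both strands as the letters CTTTGA for TCF and LEF factors, GCGNGGGCG for EGR factors and TGANTCA for AP-1, which occur in 13.8%, 4.70% and 6.75% of 32851 such promoters. Wnt11 is shown because it was called and Wnt3 because it had the largest log2 fold change in limma among the ligands with an entry. The capitals mark the match of Wnt11 to the TCF and LEF letters, read on the other strand, and Wnt3 has no match to these letters in its window. Another start of Wnt11 in the table, with the window chr7:98838595-98838844 on the plus strand, has no match to any of the 3 motifs. Wnt11 is at chr7:98834862-98835111 on the plus strand, and Wnt3 at chr11:103773925-103774174 on the plus strand. A match of letters is a description and no binding was measured.
Wnt11: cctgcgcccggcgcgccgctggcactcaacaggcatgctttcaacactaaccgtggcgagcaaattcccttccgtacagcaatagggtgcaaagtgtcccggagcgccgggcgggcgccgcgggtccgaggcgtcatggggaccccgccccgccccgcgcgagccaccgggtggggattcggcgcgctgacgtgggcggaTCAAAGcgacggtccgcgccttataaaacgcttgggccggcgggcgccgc
Wnt3: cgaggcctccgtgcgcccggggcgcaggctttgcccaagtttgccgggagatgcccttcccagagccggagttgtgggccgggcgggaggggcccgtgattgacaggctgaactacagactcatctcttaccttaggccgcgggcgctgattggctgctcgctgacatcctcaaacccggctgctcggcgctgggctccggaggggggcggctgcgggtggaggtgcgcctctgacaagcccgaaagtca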

How the data were processed

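RNA was sequenced from the skin of 4 VC and 4 AP mice. Per the submitters' processing notes and methods, the authors mapped reads with STAR (mm10) and counted reads of each gene (featureCounts in the methods, HTSeq in the notes). The deposited signal values are those counts after division by each library's DESeq2 size factor, done by the authors, beside columns of their own fold changes and p-values, which were not used. All 150160 values were whole multiples of 1 step per library, within 0.01 reads, so reads were recovered for count tests (100% whole).

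Values were tested with limma 3.58.1 in R 4.3.3, with an intensity trend, on log2(value + 1), so fold changes of low genes depend on the pseudocount. Alternatives used edgeR 4.0.16 (quasi-likelihood, TMM), DESeq2 1.42.0 and limma-voom on the recovered reads, other scalings, pseudocounts of 0.5 and 5, other filters, reads drawn down to 3080758 per library, a length correction and each library left out. The fitting code was tested on simulated data. Exact permutation tests used the 70 assignments of 4 against 4 libraries and were two-sided. Lengths and positions came from GENCODE M21, which holds 18766 of the gene identifiers.

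The ligands and all gene lists were chosen with earlier results of these data known, so no test over a list is given. Genes named are all ligands, the other mouse Wnt genes, and genes that overlap a ligand or share sequence with it. List members with an adjusted p under 0.05 (at most 6 per list) and the most abundant gene of a marker list are also named. So are the 3 genes most like each called ligand. Genes of background clauses, such as Porcn, Wls and Notum, are named for their function.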

Additional observations from a re-analysis of the deposited data

Results flagged for a closer look

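Among 28 sets of 4 libraries examined for a library far from the other 3, 4 stood out, where chance gives about 1 in 20. Wnt16 had 0 reads in VC.1, and the gap to the nearest VC library was 0.878 of the range of its log2 values. The non-canonical share of the ligand pool was 24.3% in VC.4, with a gap of 0.849 of the range above the other VC libraries. It was 8.51% in AP.4, with a gap of 0.854 of the range below the other AP libraries. The canonical minus non-canonical mean of log2(normalized counts + 1), not corrected for exon length, was 0.40 in AP.4, with a gap of 0.842 of the range above the others. The last 2 come from the same library and partly from the same genes, so they are not separate observations.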

How the results depend on the processing

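Every ligand fold change was recomputed under 21 alternatives. Of these 189 values, 162 kept their direction and their side of the threshold, 15 lost a call, all of Wnt7b or Wnt11, 4 gained 1, and 8 changed sign. Wnt7b kept its direction in all 21 (log2 fold change 1.49 to 2.65) and its call in 15, and Wnt11 in all 21 (0.99 to 2.04) and in 12.

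Scaling by total counts moved the median of all genes by 0.84 on the log2 scale, and gave 8657 genes higher and 70 lower, with 4 ligands higher (4 by the unadjusted p and fold). Under it Wnt4 was at 0.73, Wnt5a at 0.72, Wnt6 at 0.72, Wnt10b at 0.33, Wnt2 at 0.38, Wnt5b at 0.45, Nkd1 at 0.11, Dct at 0.037 and Csf1r at 0.72, all reversed. Relative to the median of all genes, Wnt4 was at -0.20 by the deposited factors and -0.17 by total counts, and Wnt7b at 1.73 and 1.75. Without the trend, limma called 376 genes higher, 216 lower and 0 ligands higher. Limma-voom called 0 ligands higher. DESeq2 called 1677 genes higher and 1362 lower. Removing the length trend left 580 genes and 1 ligand higher, and turned Scd1 (-0.069). At an adjusted p under 0.1 there were 1917 genes higher and 1381 lower. The cause of these changes was not tested.

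With each library left out, genes higher ranged from 209 to 1082, genes lower from 94 to 817, ligands higher from 0 to 2, and ligands higher by the unadjusted p and fold from 1 to 3. Fold changes near 0 changed sign in some of these fits: Wnt4 (-0.43 to 0.091), Wnt5a (-0.33 to 0.0075), Wnt6 (-0.41 to 0.086), Wnt2 (-0.90 to 0.18), Wnt9a (-0.17 to 0.42) and, among markers, Scd1 (-0.016 to 0.50) and Csf1r (-0.33 to 0.15). No ligand was called lower in any fit. Shares by the longest transcript in place of all exons, an alternative chosen after seeing the data, gave canonical shares of 51.7% in VC and 61.6% in AP. No paired analysis was possible because the labels give the groups no shared numbers and the columns are not tied to animals.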
